A study of Homo sapiens with 4 samples.

Results

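A stretch of the long arm of chromosome 1, from 230 to 240 Mb in the hg38 build, was examined in an ATAC-seq comparison of HCT116 cells with and without supplied FOXD2. ATAC-seq marks open chromatin through the DNA that the Tn5 transposase can cut and tag, and each library was deposited as a list of peak intervals. Overlapping intervals from any of the 4 lists were joined into 1 region. The stretch holds the 433 regions, of 122856 in all, whose midpoint lies between those positions. A region is called gained if both FOXD2 lists have an interval in it and the control lists have none, and lost in the reverse case. The stretch was chosen by its counts of gained and lost regions, with gained ones in excess, so these counts, and every other measure from the same contrast, are given as a description with no test.

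HCT116 is an established human colorectal carcinoma line. The FOXD2 group (2 libraries) was made from cells given a pSin lentivirus that carries the full-length coding sequence of FOXD2. FOXD2 is a forkhead transcription factor. The control group (2 libraries) was made from cells that received the empty pSin vector. Both groups grew as stable cells under puromycin selection, and no label tells whether replicates are separate cultures, which means that their spread may be technical. Nor do the labels say whether the stable cells were a pool or 1 clone.

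Open chromatin in a cell line falls into 2 broad kinds. Promoters of genes used by most cell types are open nearly everywhere, while elements inside and between genes are open in a cell-type-dependent way and are where sequence-specific factors mostly act. Forkhead proteins bind DNA through a winged-helix domain, and several of them can bind sites on nucleosomes. The stretch mixes genes of general cell function, such as the mitochondrial import receptor gene TOMM20, the Golgi tethering gene COG2 and the exocyst gene EXOC8, with genes best known from nerve and muscle, such as RYR2 (a calcium release channel), ACTN2 (alpha-actinin of muscle) and CHRM3 (a muscarinic receptor).

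Sequences of 5 promoter windows are shown because gained, lost or strongly differing regions of the stretch touch them. Each runs 5′ to 3′ on the strand of the gene, from 250 bases before to 50 after the start, and comes from RefSeq (GRCh38.p14, the same build as hg38). The region at the first of them, the RefSeq gene LOC124904554 (chr1:234657148-234657447, minus strand), ranked higher in both FOXD2 lists than in both control lists by a wide margin. The next windows belong to the 2 annotated starts of IRF2BP2, which encodes a transcriptional co-repressor and is the nearest protein-coding gene to 4 gained regions (chr1:234610129-234610428 and chr1:234609476-234609775, minus strand). In these 3 sequences capitals mark the letters TGANTCA (a match to the AP-1 element) or GGGCGG (the GC box), on either strand.
LOC124904554: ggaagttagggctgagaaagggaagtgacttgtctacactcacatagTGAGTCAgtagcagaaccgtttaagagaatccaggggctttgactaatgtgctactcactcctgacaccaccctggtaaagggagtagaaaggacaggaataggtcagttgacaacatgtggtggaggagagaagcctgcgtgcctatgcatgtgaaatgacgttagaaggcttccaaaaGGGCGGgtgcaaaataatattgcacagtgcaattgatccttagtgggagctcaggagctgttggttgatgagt
IRF2BP2, higher start: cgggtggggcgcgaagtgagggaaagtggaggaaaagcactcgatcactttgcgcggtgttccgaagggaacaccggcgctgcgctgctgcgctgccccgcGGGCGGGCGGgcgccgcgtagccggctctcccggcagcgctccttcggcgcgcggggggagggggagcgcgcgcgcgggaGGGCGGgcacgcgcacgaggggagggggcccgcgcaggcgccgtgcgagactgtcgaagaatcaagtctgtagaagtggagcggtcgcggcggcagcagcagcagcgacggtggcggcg
IRF2BP2, lower start: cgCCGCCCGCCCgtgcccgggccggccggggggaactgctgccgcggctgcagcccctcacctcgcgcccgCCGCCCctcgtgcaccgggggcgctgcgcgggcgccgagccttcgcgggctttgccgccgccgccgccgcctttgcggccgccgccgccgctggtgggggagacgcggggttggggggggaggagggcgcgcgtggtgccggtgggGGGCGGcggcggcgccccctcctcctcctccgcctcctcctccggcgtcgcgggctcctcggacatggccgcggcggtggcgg

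The other pair of windows belongs to the long non-coding RNA genes LINC01348 (chr1:235069769-235070068, minus strand), touched by a gained region, and LINC01132 (chr1:234723792-234724091, plus strand), touched by a lost one and also by a region shared by all 4 libraries. In these, capitals mark the bases inside the merged gained or lost region.
LINC01348: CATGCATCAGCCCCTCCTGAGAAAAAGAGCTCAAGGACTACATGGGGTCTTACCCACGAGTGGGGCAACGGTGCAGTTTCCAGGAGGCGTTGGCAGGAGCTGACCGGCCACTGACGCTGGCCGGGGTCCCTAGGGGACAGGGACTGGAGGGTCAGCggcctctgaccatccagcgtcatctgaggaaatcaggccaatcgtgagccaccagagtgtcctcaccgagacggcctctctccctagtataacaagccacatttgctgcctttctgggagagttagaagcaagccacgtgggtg
LINC01132: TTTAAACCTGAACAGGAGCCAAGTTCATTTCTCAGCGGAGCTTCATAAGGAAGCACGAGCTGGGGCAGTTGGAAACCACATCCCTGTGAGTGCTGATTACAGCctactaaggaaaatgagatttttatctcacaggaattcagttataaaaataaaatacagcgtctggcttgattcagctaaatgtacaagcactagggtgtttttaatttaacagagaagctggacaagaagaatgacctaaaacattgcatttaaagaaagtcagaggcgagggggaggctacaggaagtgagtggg

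The letters differ in kind between these windows. The IRF2BP2 windows are 74.3% and 84.0% G or C with 48 and 52 CG pairs, while the LOC124904554 window is 47.7% G or C with 4 CG pairs. LINC01348 has 12 CG pairs and LINC01132 has 4. Motifs were searched on both strands, and no motif holds another within it, although copies of GGGCGG can overlap each other. TGANTCA was in 4 of the 56 windows of protein-coding genes in the stretch (7.14%; GPR137B, LYST and TRIM67) and in 7.71% of all 35116 promoter windows. GGGCGG was in 71.4% of the 56 and 45.0% of all windows. The forkhead core TGTTTAC was in 0 of the 56 and 3.42% of all windows. Sequence outside promoter windows, where most gained regions lie, was not searched. Of the other motifs searched, CCAAT was in 32.1% of the 56 and 34.6% of all windows, CCGGAAG (an ETS element) in 21.4% and 10.3%, and CACGTG (an E-box) in 7.14% and 7.26%. TGACGTCA (the cyclic AMP response element) was in 0 of the 56 and 1.85% of all windows. LINC01132 holds 1 TGANTCA as well, and LINC01348 holds 1 CCAAT and 1 CACGTG.

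The lists held 82739 intervals on chromosomes 1 to 22 and X in FOXD2 replicate 1, 64675 in FOXD2 replicate 2, 77752 in control replicate 1 and 72796 in control replicate 2. Read depth is unknown, and no interval had a summit pileup below 8 tags. The supplied gene itself had an interval inside its body of 676 bp in FOXD2 replicate 1, 689 bp in FOXD2 replicate 2 and 320 bp in control replicate 1, with none in control replicate 2; reads from the vector can map there. Of 9 colon epithelium markers, 6 had a peak at a gene end in all 4 libraries (KRT8, KRT18, CDX2, CDH1, EPCAM and CDX1), and CDH17 had none in any. Of 5 markers each, leukocytes had 0 in all 4 libraries, fibroblasts 3, endothelium 1 and neural cells 3. With 2 libraries against 2, no exact test can reach 0.05.

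Among the 433 regions 42 were gained and 10 lost with FOXD2. Gained regions made up 9.70% of the stretch (95% Clopper-Pearson interval 7.08 to 12.9, counting error only), against 3.89% of all regions in the genome. Lost regions made up 2.31% (1.11 to 4.21), against 3.87% of all regions. In the other 22 windows of 10 Mb on chromosome 1 that held at least 100 regions, gained regions were between 1.95% and 5.99% and lost regions between 2.07% and 7.35%. The remaining regions of the stretch were 129 present in all 4 libraries, 183 in a single library and 69 in other combinations.

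The order of the libraries by number of open regions was another one here than across the genome. FOXD2 replicate 1 had an interval in 298 of the 433 regions (68.8%), FOXD2 replicate 2 in 230 (53.1%), control replicate 1 in 245 (56.6%) and control replicate 2 in 210 (48.5%). Over all regions the shares were 65.6% and 50.8% in FOXD2 replicates 1 and 2, and 61.7% and 56.8% in control replicates 1 and 2. FOXD2 replicate 2, the shortest list and the lowest of the 4 across the genome, thus stood above control replicate 2 in the stretch, and below both controls over all regions. By definition a gained region counts for both FOXD2 libraries and for neither control. The changed order therefore follows in part from how the stretch was chosen. The groups still overlapped, since control replicate 1 lay between the FOXD2 libraries. Regions found in a single library numbered 71 in FOXD2 replicate 1, 29 in FOXD2 replicate 2, 53 in control replicate 1 and 30 in control replicate 2.

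**Figure D1:**
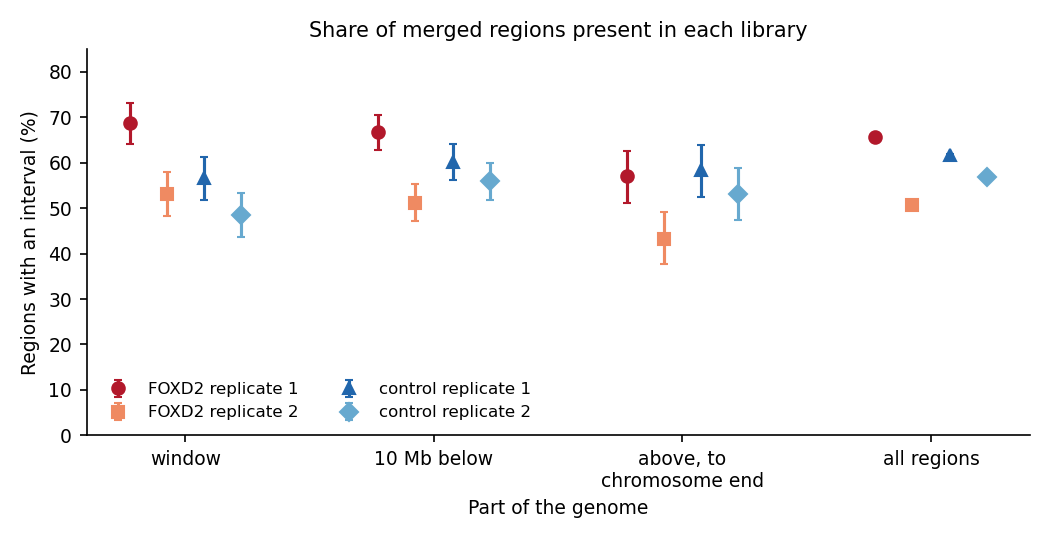
Share of merged regions with an interval in each of the 4 libraries (y axis, percent) for the stretch (window), the 10 Mb below it, the rest of the chromosome above it and all regions; points are libraries and bars are 95% Clopper-Pearson intervals. FOXD2 replicate 2 stands at 53.1% in the stretch and 50.8% over all regions, control replicate 2 at 48.5% and 56.8%. The gained regions by which the stretch was chosen count for both FOXD2 libraries and for neither control.

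The excess of gained regions did not fill the stretch evenly. Gained regions lay from 230327612 to 235920489, with 4 in the first 1 Mb bin, 5 in each of the next 3, 12 from 234 to 235 Mb and 11 from 235 to 236 Mb. From 236 Mb on there was none, although the bin from 236 to 237 Mb held 43 regions, 2 of them lost. The last 3 bins, which hold RYR2 and CHRM3, had 11, 0 and 2 regions. The 2 bins from 234 to 236 Mb carried 23 of the 42 gained regions. They also held more regions of any kind than the other bins, 86 and 76. The bins from 230 to 234 Mb held 70, 55, 44 and 46 in order. The raw counts of gained regions thus follow in part the number of regions per bin. Without them 19 gained regions remained, with 79.2% gained among gained and lost.

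Outside the edges the balance was closer. From 220 to 230 Mb, 28 of 599 regions were gained (4.67%) and 20 lost (3.34%). The nearest gained region below the edge ended at 229199755. From 240 Mb to the end of the chromosome 6 of 307 regions were gained (1.95%) and 9 lost (2.93%), with the first gained one at 241413469. As shares of gained plus lost regions, gained ones were 80.8% in the stretch (67.5 to 90.4), 58.3% below it (43.2 to 72.4), 6 of 15 above it (16.3 to 67.7) and 50.1% over the genome. The members just inside the edges were regions of a single library, at 230010056 to 230010255 (−log10 q 5.38 in control replicate 1), and from 239924703 to 239924902 (FOXD2 replicate 1, 6.64). Just outside lay a region of FOXD2 replicate 1 at 229973095 to 229973398 (−log10 q 5.26), and one at 240004122 to 240004446 in FOXD2 replicate 1 (6.64), control replicate 1 (5.38) and control replicate 2 (5.26).

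**Figure D2:**
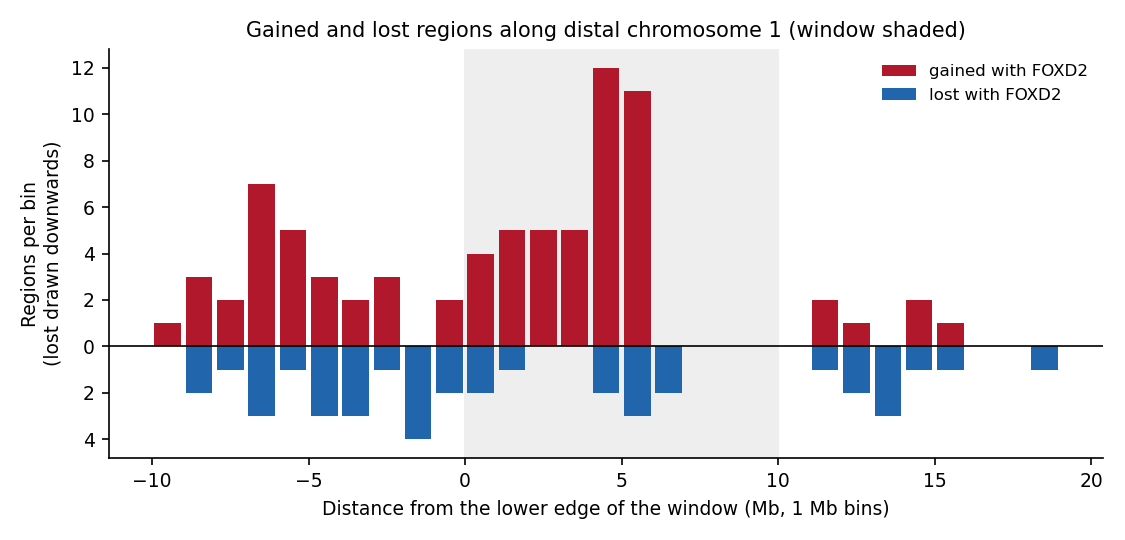
Number of gained (upwards) and lost (downwards) regions per 1 Mb bin (y axis) against distance from the lower edge of the stretch in Mb (x axis), with the stretch shaded. The tallest bins hold 12 and 11 gained regions, and no gained region lies in the last 4 Mb of the stretch. Bars are counts, and these tallest bins also hold the most regions of any kind in the stretch (86 and 76).

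Counts with 1 library left out show how far single libraries carry the balance. Without FOXD2 replicate 1 the stretch had 19.8% gained and 7.69% lost regions, against 12.0% and 10.3% over the genome, and without FOXD2 replicate 2 it had 28.1% and 4.16%, against 19.5% and 5.93%. Without control replicate 1 it had 13.3% gained and 10.7% lost, against 6.91% and 14.4%. Without control replicate 2 the stretch had 50 gained and 64 lost regions (12.3% and 15.8%), so that gained ones were no longer in excess, against 6.18% and 17.0% over the genome. The share gained thus lay above that of the genome, and the share lost below it, in each of the 4 settings. A region called gained or lost from all 4 libraries keeps its call when 1 is left out. The settings therefore repeat, in part, the counts that chose the stretch.

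Gained and lost regions were mostly narrow and away from gene ends, here as over the genome. Gained regions had a median width of 342 bp and lost ones of 270.5 bp, while shared ones were wider (745 bp). Over the genome these widths were 386, 351 and 748 bp. Of the 42 gained regions, 23 lay inside protein-coding genes (54.8%), 18 outside (42.9%) and 1 within 1000 bp of a gene end (2.38%). Over the genome 53.7%, 42.5% and 3.75% of gained regions lay in these places. Of the 10 lost, 7 lay inside and 3 outside. Lost regions over the genome were 48.5% inside, 43.3% outside and 8.20% at gene ends. Of the 129 shared regions, 35 (27.1%) lay at gene ends, against 31.6% of shared regions over the genome. Gained regions had a median −log10 q (the authors' peak significance) of 8.63 in FOXD2 replicate 1 and 8.55 in FOXD2 replicate 2, at percentiles 43.8 and 39.5 of those lists. Here and below a percentile ranks an interval by −log10 q within its own list, with high values for strong peaks. Gained and lost regions are ranked by the lower of their 2 percentiles, and shared ones by the lowest of their 4. Over the genome the medians of gained regions were at percentiles 39.4 and 31.4. The midpoint of a gained region lay between 0.474 and 164.2 kb from the nearest shared one, with a median of 23.1 kb.

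**Figure D3:**
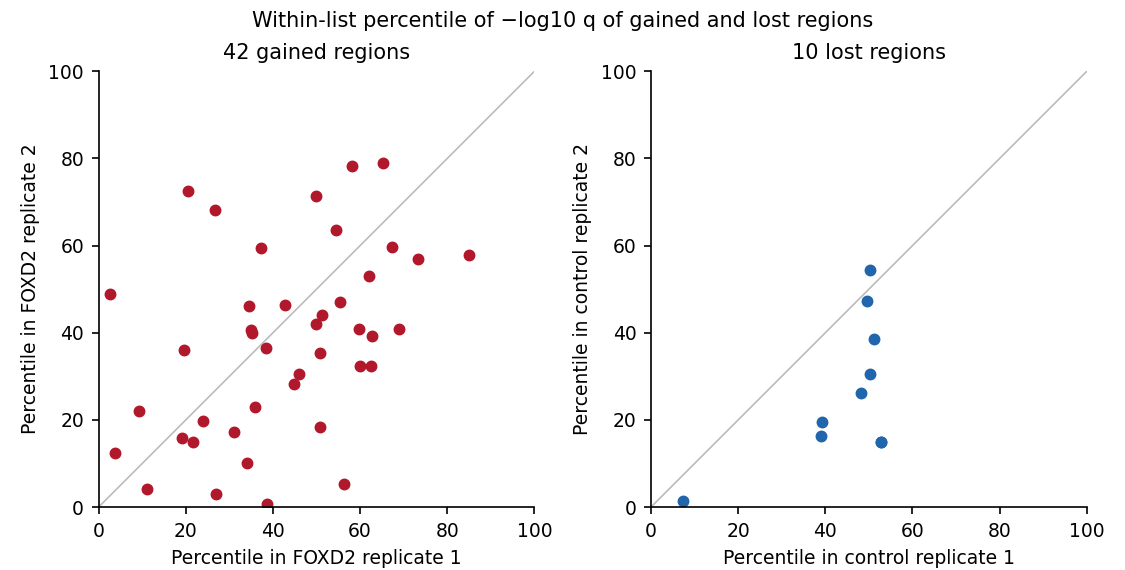
Within-list percentile of −log10 q of the 42 gained regions in FOXD2 replicate 1 (x) and 2 (y), left, and of the 10 lost regions in control replicate 1 (x) and 2 (y), right; each point is a region and the line marks equal percentiles. Gained regions reach percentiles 85.1 and 78.8, while lost regions end at 52.8 and 54.4. The medians are 43.8 and 39.5 for gained regions in FOXD2 replicates 1 and 2. For lost regions they are 49.9 and 22.8 in control replicates 1 and 2.

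The stretch has 48 protein-coding genes reaching into it, of which 46 were the nearest gene of at least 1 region within 100 kb. Gained regions without lost ones were assigned to 15 genes, lost without gained to 3 (FSAF1, ACTN2 and MTR) and both to 5, and 23 genes had neither. The highest-ranked gained region lay 73848 bp from IRF2BP2, at 234684026 to 234684562, with −log10 q of 15.9 in FOXD2 replicate 1 and 25.3 in FOXD2 replicate 2 and no interval in either control. IRF2BP2 (234604269 to 234610178) was the nearest gene of 25 regions. These had an interval in 17 and 15 cases in FOXD2 replicates 1 and 2 and in 13 and 12 cases in control replicates 1 and 2. The FOXD2 libraries were above both controls at this gene, where the 4 gained regions by definition count for both FOXD2 libraries and neither control. The other gained regions near it were at 234699772 to 234700712 (−log10 q 21.2 in FOXD2 replicate 1 and 12.8 in FOXD2 replicate 2), 234647837 to 234648203 (10.3 and 7.91) and 234628201 to 234628518 (7.59 and 8.12). All 4 lie beyond the higher-coordinate end of the gene, which is its 5′ side.

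TARBP1, which encodes a tRNA ribose methyltransferase, is the neighbour of IRF2BP2 at lower coordinates (234391313 to 234479179) and also had 4 gained and 0 lost regions. Of its 9 regions, 8 were present in each FOXD2 library, against 5 in control replicate 1 and 3 in control replicate 2. The 4 gained regions are by definition among the 8 of each FOXD2 library and in neither control. The strongest gained one lay inside the gene at 234433573 to 234433979, with −log10 q of 12.6 in FOXD2 replicate 1 and 24.8 in FOXD2 replicate 2. A further one inside the gene, at 234403487 to 234403768, had 11.4 and 15.4. The other two lay 7674 and 36120 bp outside it. From 234.4 to 234.75 Mb, a span set after the values were seen, 9 of 39 regions were gained and 1 lost. In this span 28 and 26 regions were present in FOXD2 replicates 1 and 2, and 20 and 17 in control replicates 1 and 2. These counts include the 9 gained regions for both FOXD2 libraries and for neither control, so they are no separate result.

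The same span holds the shared region whose pileup differed more than that of any other shared region in the stretch. It covers the LOC124904554 window shown above (234656906 to 234657674) and stood at percentiles 70.4 and 81.8 in FOXD2 replicates 1 and 2, against 13.4 and 36.5 in control replicates 1 and 2. Its summit pileup was 50 and 59 tags in FOXD2 replicates 1 and 2, against 18 and 23 tags in the controls, and its local background 8.82 and 7.94 tags with FOXD2, against 4.02 and 4.18. The FOXD2 values lay apart from the control values on all 3 scales. These are not separate measures, since the percentile rests on pileup and background. On the log2 scale the pileup with FOXD2 stood 1.61 higher relative to the median of all shared regions.

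The promoter of IRF2BP2 itself was open in all 4 libraries, as 3 neighbouring shared regions whose ranks did not all differ the same way. The region over the higher start (234609964 to 234610424) stood at percentiles 49.8 and 40.1 in FOXD2 replicates 1 and 2, against 73.4 and 60.9 in control replicates 1 and 2, so it was lower in both FOXD2 lists. There the pileup was 66 and 54 tags in FOXD2 replicates 1 and 2, against 80 and 62 tags in the controls, and the background 23.9 and 18.7 tags, against 17.2 and 15.3. The region that reaches the lower start (234608310 to 234609635) stood at 55.4 and 53.0 in FOXD2 replicates 1 and 2, against 39.8 and 17.2 in the controls, so it was higher with FOXD2, although on the lower window itself control replicate 1 had no interval. The region just beyond the gene (234610633 to 234611453) stood at 91.7 and 83.4 in FOXD2 replicates 1 and 2, against 85.6 and 83.8 in the controls, and the groups overlapped. A shared region 39226 bp from the gene, at 234564391 to 234565043, had pileups of 52 and 48 tags in FOXD2 replicates 1 and 2, against 29 and 27 tags in the controls. Its background was 4.20 and 3.50 tags with FOXD2 and 2.06 and 1.82 in the controls, and the part of the background in these shared regions was not tested.

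Of the genes of chromatin and RNA that were listed by role, ARID4B, a subunit gene of the SIN3A histone deacetylase co-repressor complex, held the gained region with the highest single value. It lay inside the gene at 235295751 to 235296364, with −log10 q of 35.0 in FOXD2 replicate 1 (percentile 85.1) and 13.2 in FOXD2 replicate 2 (57.8). Over the 8 members of this list in the stretch, 9 of 50 regions were gained (18.0%) and 1 lost (2.00%), against 9.70% and 2.31% over the stretch and 3.89% and 3.87% over the genome, with IRF2BP2 and TARBP1 holding 8 of the 9. FSAF1 held the lost one, at 231233780 to 231234471, with −log10 q of 11.2 in control replicate 1 and 7.28 in control replicate 2. RBM34, SPRTN, TSNAX and HEATR1 had neither kind. The TSNAX promoter region (231527980 to 231528867), at a gene for a translin-binding protein, stood at percentiles 88.3 and 93.5 in FOXD2 replicates 1 and 2 and 97.9 and 98.1 in the controls.

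Metabolic and mitochondrial genes had 5 gained and 1 lost of 39 regions (12.8% and 2.56%, against 9.70% and 2.31% over the stretch). EGLN1, the oxygen-sensing prolyl hydroxylase gene, held the second-ranked gained region of the stretch, at 231385459 to 231385769 with −log10 q of 17.0 and 13.8 in FOXD2 replicates 1 and 2. A shared region inside the same gene went the other way, at percentiles 47.5 and 31.4 in FOXD2 replicates 1 and 2 against 71.6 and 67.5 in the controls (231407662 to 231408368). TOMM20 had 2 gained regions, 38930 and 48076 bp away, and the nearer one touches the LINC01348 window, where FOXD2 replicate 1 had an interval (−log10 q 5.28) and the other 3 libraries had none within the window itself. GNPAT, an enzyme gene of ether lipid synthesis, had the only gained region at a gene end, 950 bp beyond its 3′ end, with −log10 q of 14.6 and 8.46 in FOXD2 replicates 1 and 2. NTPCR, a nucleoside triphosphatase gene, had 1 gained region (7.63 and 2.85). COA6 and AGT had neither kind, and GGPS1 was the nearest gene of no region. The methionine synthase gene MTR had 1 lost region 8514 bp away (10.8 and 6.71 in control replicates 1 and 2).

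Channel, receptor and signalling genes had 10 gained and 1 lost of 99 regions (10.1% and 1.01%, against 9.70% and 2.31% over the stretch). SLC35F3, a solute carrier gene, had 3 gained and 1 lost of its 33 regions. Its regions were present in 23 and 20 cases in FOXD2 replicates 1 and 2 and in 18 and 16 cases in control replicates 1 and 2. The 3 gained regions by definition count for both FOXD2 libraries and neither control, and the lost one the reverse. GNG4, a G protein gamma subunit gene, had 3 gained of 14 regions, of which a pair 14424 and 15012 bp from the gene were neighbours. The kinase gene MAP3K21 had 2 gained of 8, and the potassium channel gene KCNK1 had 1 of 16, as had TRIM67 of 11. At KCNK1 a shared region 92933 bp away (233520540 to 233521173) stood at percentiles 60.5 and 61.8 in FOXD2 replicates 1 and 2, against 17.5 and 30.2 in the controls, again without overlap. RYR2 had 0 gained and 0 lost of 9 regions, with intervals in 6 and 2 of them in FOXD2 replicates 1 and 2 and in 2 and 5 in the controls.

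Cytoskeletal and scaffold genes had 7 gained and 2 lost of 88 regions (7.95% and 2.27%, against 9.70% and 2.31% over the stretch). SIPA1L2, a gene for a GTPase-activating protein that switches Rap off, had 3 gained of 28 regions, although its regions were present in 13 and 14 cases in FOXD2 replicates 1 and 2 and in 13 and 15 cases in the controls, with no separation of the groups. The scaffold gene DISC1 had 2 gained of 24, the stronger at 231866751 to 231867091 (−log10 q 14.4 and 11.6). TBCE, a tubulin folding cofactor gene, had 2 gained and 1 lost of 12, and ACTN2 had 1 lost of 4. CAPN9, MAP10 and NID1 had neither.

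Secretory pathway and glycosylation genes had 4 gained and 2 lost of 75 regions (5.33% and 2.67%, against 9.70% and 2.31% over the stretch). LYST, the lysosomal trafficking regulator gene, held 3 of the gained and both of the lost regions, which is all but 1 of them. The stronger gained one, at 235834574 to 235834912, had −log10 q of 10.1 and 19.6 in FOXD2 replicates 1 and 2, and the stronger lost one, at 235843471 to 235843717 in the same gene, had 11.1 and 10.9 in control replicates 1 and 2. COG2 had the fourth gained region. GALNT2, B3GALNT2, ERO1B, EXOC8, LGALS8 and GPR137B had neither kind, and ARV1 was the nearest gene of no region. These lists were drawn up by role with earlier results of these data known, and their counts describe the members only, with no test of one list against another or against the stretch.

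Of the genes on no list, PCNX2 had 2 gained of 16 regions, C1orf198 had 1 gained and 1 lost of 8, and PGBD5, a gene derived from a piggyBac transposase, had 2 gained and 1 lost of 15. PGBD5 regions were present in 12 cases in FOXD2 replicate 1 and 4 in FOXD2 replicate 2, against 3 and 5 in the controls, so the 2 FOXD2 libraries were not alike there. The highest-ranked lost region had no protein-coding gene within 100 kb. It lay at 234723627 to 234723894 with −log10 q of 11.2 and 13.5 in control replicates 1 and 2, touching the LINC01132 window shown above. A strong shared region (234724037 to 234725158) overlapped the same window and had 39.3 and 34.3 in FOXD2 replicates 1 and 2, against 42.1 and 54.2 in the controls. On the window itself FOXD2 replicate 2 and both controls had an interval, so the loss is of 1 interval and not of all peaks there. FOXD2 replicate 2 also had an interval of its own just below the lost region, at 234723166 to 234723477 (−log10 q 7.44).

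**Figure D4:**
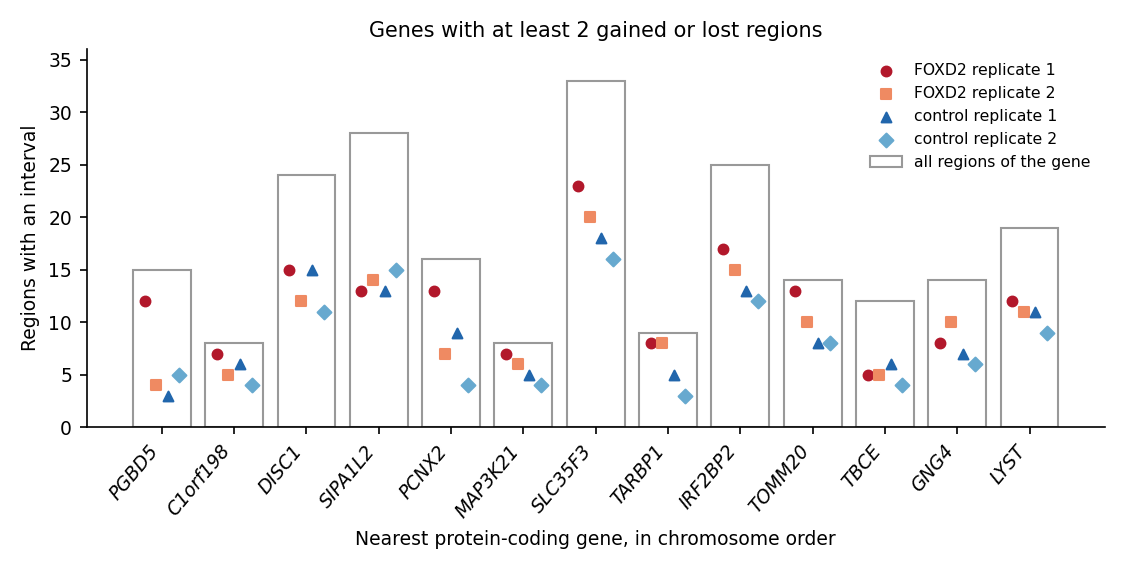
Regions with an interval in each library (points, y axis, number of regions) for the 13 protein-coding genes with at least 2 gained or lost regions in all, in chromosome order; open bars give all regions assigned to the gene. At TARBP1 the FOXD2 libraries have 8 and 8 of 9 regions and the controls 5 and 3, while at SIPA1L2 the 4 libraries have 13 to 15 of 28. Gained regions are included and by definition count for both FOXD2 libraries and neither control.

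Few gene ends differed in their calls. Of the 43 protein-coding genes of the stretch with a promoter window in the RefSeq table, 34 had a peak on a window in all 4 libraries, 4 in none and 5 in 1 to 3 libraries. Among all 48 genes, 0 gained a gene-end peak and 1 lost one, against 0.466% gaining and 0.851% losing over all 19974 protein-coding genes. The 1 was GALNT2, a glycosyltransferase gene, where control replicate 1 had a weak interval at one end (−log10 q 4.12) and control replicate 2 a weak one at the other (3.64). Its promoter window was open in all 4 libraries. Of 57 other RefSeq genes with promoter windows, not listed as protein-coding, 11 had a peak in all 4 libraries, 43 in none and 3 in 1 to 3. No interval lay within 1 kb of the 5 microRNA hairpins. The strongest shared regions were promoters as well, led by that of TOMM20 (235128334 to 235129214, percentiles 99.0 and 99.5 in FOXD2 replicates 1 and 2 and 99.0 and 99.9 in the controls). COG2, the shared start of EXOC8 and the DNA repair protease gene SPRTN, an internal start of LYST, and TBCE followed. All 5 stood at or above percentile 95.5 in every library.

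Strength of the shared regions was compared through the summit pileup and the local background, in tags, that the deposited fold enrichment and p-value of each peak fix together. The median pileup of the 129 shared regions was 40 and 34 tags in FOXD2 replicates 1 and 2, and 36 and 34 tags in control replicates 1 and 2. Over all 39933 shared regions it was 45 and 38 tags in FOXD2 replicates 1 and 2, against 48 and 46 tags in the controls, a median log2 difference of −0.20. Relative to that, pileups in the stretch were 0.10 higher with FOXD2 (quartiles −0.14 and 0.35), and 77 of the 129 regions lay above the genome's median. In the 4 pairings of a FOXD2 with a control library the value was 0.062 to 0.13, and without FOXD2 replicate 2 it was 0.036. It was −0.012 from 220 to 230 Mb (206 regions) and 0.044 from 240 Mb on (82 regions).

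The local background differed too, and by more. Its median was 4.14 and 3.84 tags in FOXD2 replicates 1 and 2, and 3.4 and 3.5 tags in control replicates 1 and 2. The FOXD2 libraries were above both controls there. Relative to all shared regions it was 0.14 higher with FOXD2 on the log2 scale, with 94 of the 129 regions above the genome's median, and 0.087 to 0.24 higher in the 4 pairings. The same value was 0.0045 below the stretch and −0.093 above it. The lowest background of any interval was 1.84 tags in both FOXD2 libraries, 1.68 in control replicate 1 and 1.71 in control replicate 2. A shared region at this floor in all 4 libraries, such as 231828211 to 231828533, stood 0.13 higher with FOXD2. Such regions count among those above the genome's median. The fold of peak over background was −0.064 relative to all shared regions on the log2 scale, and 51 of the 129 lay above the genome's median. The part of the local background in the gained regions was not tested.

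Within the stretch, pileup differed most in the 2 bins from 233 to 235 Mb. It was 0.32 higher from 233 to 234 Mb (20 regions) and 0.26 higher from 234 to 235 Mb (28 regions), and the background 0.19 and 0.43 higher. The background was also 0.25 higher in the first 1 Mb bin, where pileup was 0.036 higher (16 regions). Bins outside the stretch reached like values, with pileup 0.30 higher from 245 to 246 Mb (10 regions) and 0.25 higher from 246 to 247 Mb (14 regions). The background was 0.27 higher from 245 to 246 Mb and 0.28 higher from 221 to 222 Mb (8 regions). Without the bins from 233 to 235 Mb, a choice made after the values were seen, the pileup difference of the stretch was 0.0063. From 235 to 236 Mb, where 11 regions were gained, pileup was −0.10 and background −0.030 relative to all shared regions (21 regions), so the bins with most gained regions did not all carry stronger shared regions.

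**Figure D5:**
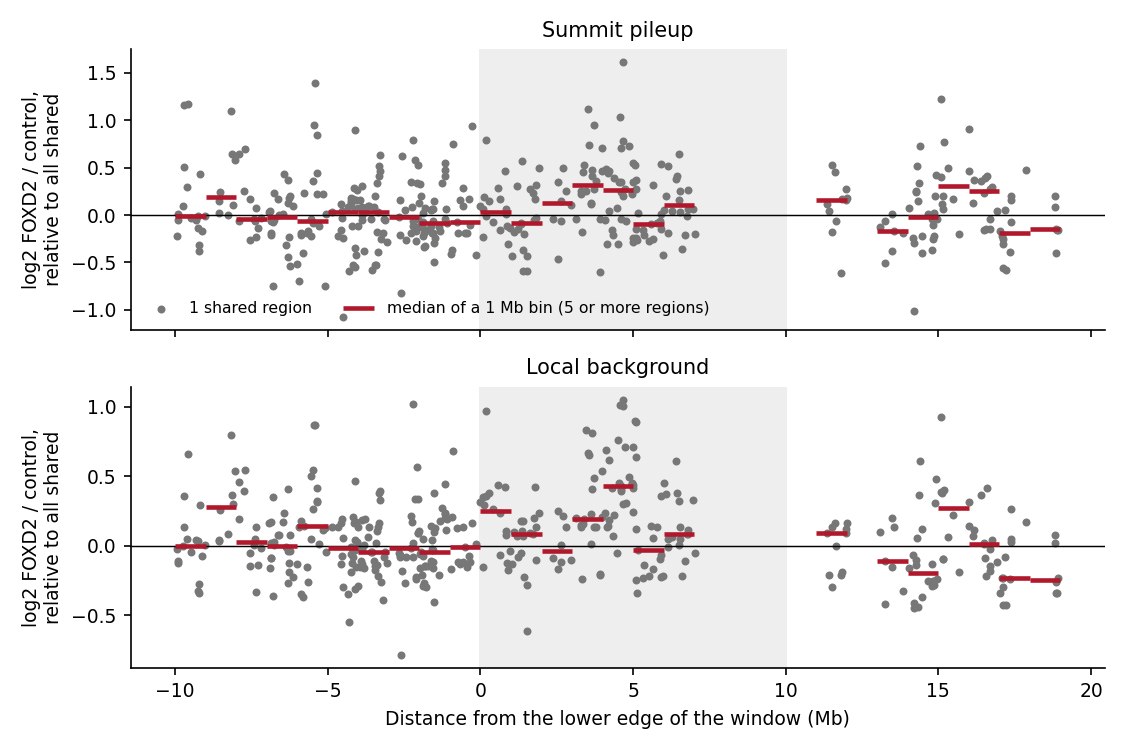
Log2 ratio of FOXD2 to control summit pileup (top) and local background (bottom) of shared regions, relative to the median of all shared regions (y axes), against distance from the lower edge of the stretch in Mb (x axis); dots are regions, red lines are medians of 1 Mb bins with 5 or more regions and the stretch is shaded. From 4 to 5 Mb into the stretch the bin medians are 0.26 and 0.43.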

How the data were processed

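Each library came as a narrowPeak list of its own. The tools named in the submitters' processing notes are MACS2 2.2.7.1, Bowtie2 2.3.4.1, cutadapt 3.4, bedtools and Picard, with hg38 as the build. No source used here gives their settings or says whether reads were shifted for Tn5. Each deposited interval carries the authors' fold (a ratio of the summit to its local background within the library), −log10 p and −log10 q, a score and a summit offset; the score was not used. Without read counts per region, a called interval was the readout.

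With Python 3.11.15 and pandas 2.3.3, intervals were merged, and pileup and background solved from fold and −log10 p by the Poisson formula of MACS2 (within 0.002 for 100% of peaks below 60). This was tested on simulated data. Where a library had several intervals in a region, the one with the highest −log10 q was used. Regions went to the nearest protein-coding gene within 100 kb, using a RefSeq table of GRCh38.p14. Genes were named where they had at least 2 gained or lost regions, held 1 of the 10 top gained or any lost region, a changed gene end, or 1 of the 5 strongest shared regions; others were named after their values were seen. The members, lists and rules were chosen with earlier results of these data known. No test was run. Intervals cover counting error only. Alternatives are in the closing section.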

Additional observations from a re-analysis of the deposited data

How the results depend on the processing

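The 42 gained and 10 lost regions, 80.8% gained, stayed within 1.5 times of these counts with peaks of −log10 q 5 or more, summit windows, lists of equal length, such peaks in both libraries, 1 Mb left off each edge, or, chosen after seeing the data, without gene ends. Leaving out 1 library, which relaxes both definitions, gave 50 to 115 gained, 17 to 64 lost and 43.9% to 87.1% gained; the low end is without control replicate 2, followed by 55.4% without control replicate 1. Without 234 to 236 Mb there were 19 gained regions. The pileup difference of shared regions (0.10) was −0.064 for the deposited fold, which divides pileup by background, 0.16 away from gene ends and 0.0063 without 233 to 235 Mb; the cause was not tested. It was 0.036 without FOXD2 replicate 2 and up to 0.12 without another library. With a replicate block of same-numbered pairs it was 0.094, but the numbers showed no pairing (correlation of deviations 0.0076). Presence calls were not compared within pairs. The 1 gene losing a gene-end peak became 0 with −log10 q of 5 or more or within 500 bp, and 1 to 3 with 1 library left out. Unknown depth and the lowest pileup of 8 tags mean that an absent interval may be a weaker site.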
